A study of Rattus norvegicus with 6 samples.

Results

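The genes followed here are 6 that make, store, take back and sense dopamine: Th, Ddc, Gch1, Slc18a2, Slc6a3 and Drd2. Their probes were found by RefSeq accession, without version, which gave 7 probes, 2 of them for Slc6a3, among 33849 probes on each array and 4013 genes that could be named. Of the 6 genes, 5 were above background on all 6 arrays and entered the test, and Gch1 and the second Slc6a3 probe did not. The substantia nigra pars compacta was cut out by laser capture from 6 rats (Sprague Dawley males, 5 months old), and the amplified RNA of each rat went onto 1 one-colour CodeLink array. Rotenone, a pesticide that blocks complex I of the mitochondrial respiratory chain, was given to 3 rats (16, 13 and 9) at 0.5 mg/kg per day for 28 days from minipumps under the skin. The 3 other rats (11, 7 and 1) carried the same pumps with solvent, a mix of dimethylsulfoxide and polyethylene glycol. All 6 had been anaesthetised with ketamine and xylazine to place the pump, and the dose rested on an average body weight. The comparison asks whether the pesticide alters expression in this region.

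Dopamine neurons turn tyrosine into L-DOPA with tyrosine hydroxylase, which needs the cofactor tetrahydrobiopterin, and L-DOPA into dopamine with aromatic amino acid decarboxylase. The vesicular monoamine transporter packs dopamine into vesicles, the plasma membrane transporter takes it back after release, and D2 autoreceptors on the same neurons restrain firing and release. Together these genes mark the nigral neurons that project to the striatum and degenerate in Parkinson disease. Captured tissue also holds glia and vessels, so fewer dopamine neurons in a sample and less RNA per neuron cannot be told apart in any value below.

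The array of rotenone rat 16 stood apart from the others. Its mean correlation with the other arrays, over the tested probes, was 0.931, against 0.956 to 0.964 for the rest, and its median net intensity (spot mean minus local background) was 11.7, against 13.9 to 16.6. The share of probes above background ranged over the arrays from 44.2% to 51.5%. One array, that of solvent rat 7, carries a different date in its file header from the other 5. No further array shares its date, so a date effect there could be checked only by leaving out this rat.

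Stretches of the promoters of Th and Slc18a2 are shown because these genes act in the same neurons while their mean differences lay on opposite sides of 0, and because both hold a cAMP response element (TGACGTCA, in capitals), a site bound by CREB-family factors. Each line gives 30 bases around the element, 5′ to 3′ on the gene's strand, from RefSeq's GRCr8 promoter table.
Th, chr1:207508269-207508298, minus strand: cagaggggcttTGACGTCAgcctggccttt
Slc18a2, chr1:268399958-268399987, plus strand: agtgctatccgTGACGTCAgagccggactg
The promoter table places both elements before a transcript start, but RefSeq's gene table lets the gene begin further upstream, within the bases printed for Th and before those printed for Slc18a2. The motif, which reads the same on both strands, was found in 2 of the 8 promoter windows that the table lists for the 6 genes, each of 300 bases, namely in Th and Slc18a2. Of all 33469 windows of that length, 1.83% hold it. The site of the orphan receptors of the NR4A family (AAAGGTCA, both strands) was found in 1 of the 3 windows of Ddc, and 1.43% of all windows hold it. These matches describe the letters only, no binding was measured, and a link to expression was not tested. Neither the Th nor the Slc18a2 difference passed the test, and that of Th was -0.00075 without rotenone rat 16.

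None of the 5 tested genes passed the test between rotenone and solvent rats. Th, Ddc and Drd2 had higher means with rotenone and Slc18a2 and Slc6a3 lower means, with a median log2 difference of 0.068 over the 5, against 0.0089 over all 16708 probes tested. No probe passed limma's moderated test at a Benjamini-Hochberg adjusted p below 0.05 (0 of 16708, 0%), and the ordinary test without moderation also called 0. Without adjustment, 825 probes (4.94%) had a p below 0.05, and none of the 5 genes did. Limma's p-values rest on the spread among 3 rats per group, drawn towards the spread of the other tested probes. An exact permutation test of 3 against 3 cannot go below 0.1.

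**Figure D1:**
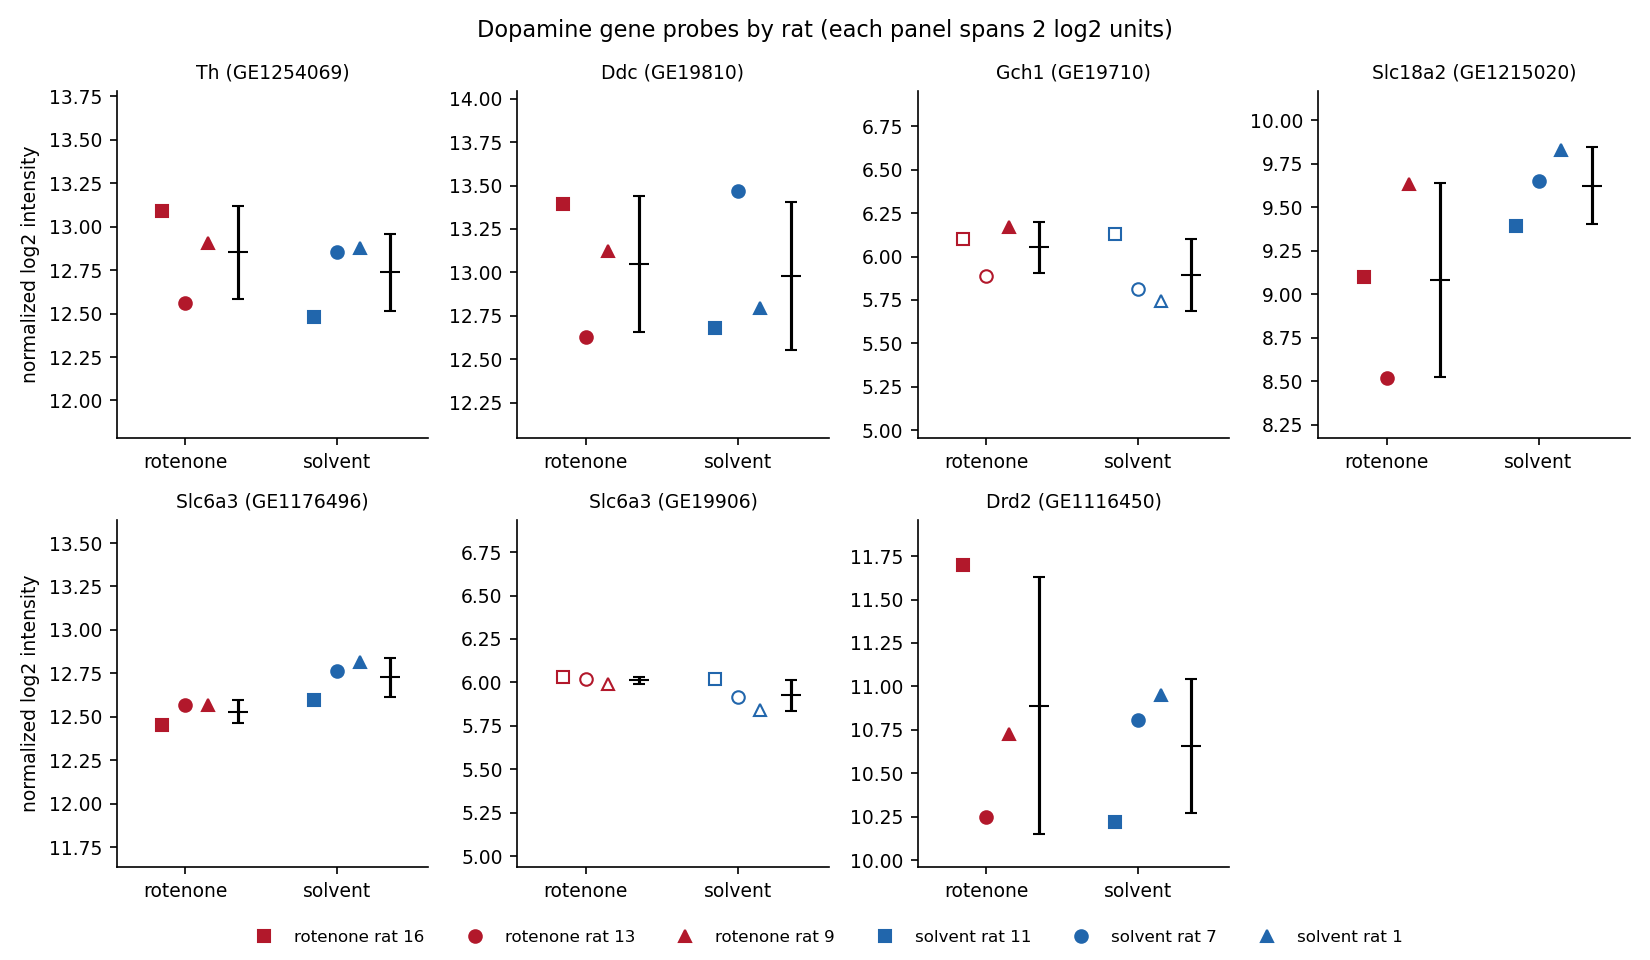
Normalized log2 intensity of each of the 7 probes, with rotenone rats on the left (red) and solvent rats on the right (blue) of each panel, 1 point per rat. Open points were not above background, black bars give mean ± SD (n = 3), and every panel spans 2 log2 units. Slc6a3 probe GE1176496 has all 3 rotenone rats, at 12.45 to 12.57, below the 3 solvent rats, at 12.60 to 12.82, while the groups overlap in the other panels.

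Th, the rate-limiting enzyme of dopamine synthesis, was bright in every rat and did not separate the groups. Its net intensity was 9607, 5898 and 7331 in rotenone rats 16, 13 and 9, against 5655, 7504 and 7680 in solvent rats 11, 7 and 1. The highest value belonged to a rotenone rat and the lowest to a solvent rat. Rotenone rat 13 lay below solvent rats 7 and 1, so the groups overlapped. After normalization Th averaged 12.85 ± 0.27 in rotenone rats and 12.74 ± 0.22 in solvent rats (log2 intensity, SD, n = 3 each). Expressed as a fold, the difference was 1.08, with a 95% interval from 0.803 to 1.47, so any change of Th within this range is compatible with these 3 rats per group. The interval does not give the smallest change that the adjusted test could have called. The difference of 0.12 on the log2 scale came to -0.00075 without rotenone rat 16 and to -0.012 without solvent rat 11 (adjusted p = 0.934 with all 6 rats, limma).

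Ddc, which converts L-DOPA into dopamine and also serves serotonin synthesis, varied more from rat to rat than Th within both groups. It had a net intensity of 12095, 5989 and 8455 in rotenone rats 16, 13 and 9, against 6401, 11474 and 7304 in solvent rats 11, 7 and 1. One rat of each group (16 and 7) stood well above the rest, and the groups overlapped. Normalized Ddc averaged 13.05 ± 0.39 with rotenone and 12.98 ± 0.43 with solvent (n = 3 each), a 1.05-fold difference with an interval from 0.705 to 1.56. The sign of this difference, 0.068 on the log2 scale, depended on single rats: it was -0.11 without rotenone rat 16 and 0.31 without solvent rat 7.

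Gch1 makes the first committed step of tetrahydrobiopterin synthesis, and its probe gave almost no signal. It was above background in 1 of 3 rotenone rats (rat 9) and in 0 of 3 solvent rats. Net intensities were 10.7, 3.48 and 15.5 in rotenone rats 16, 13 and 9, against 14.3, 0.871 and -2.0 in solvent rats 11, 7 and 1, next to local backgrounds of 39 to 46. The means on the log2 scale were 6.05 with rotenone and 5.90 with solvent, and the groups overlapped. With 5 of the 6 spots not above background, no fold is given.

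Other genes of the cofactor pathway were better measured. Of 9 genes listed for the synthesis and recycling of tetrahydrobiopterin and related steps, 5 were on the array by name and 4 were tested. Of these, 3 had higher and 1 had lower means with rotenone (median 0.16), and none passed. Without rotenone rat 16, 2 were higher and 2 lower (median 0.027). Gchfr, whose product inhibits the Gch1 enzyme, differed by 0.22 (95% interval -0.18 to 0.62) and was above background in all 6 rats. Its normalized values were 7.77, 7.25 and 7.39 in rotenone rats 16, 13 and 9, against 7.22, 7.21 and 7.33 in solvent rats 11, 7 and 1.

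Slc18a2, the transporter that loads dopamine and other monoamines into vesicles, had the largest difference of the 5 genes. Net intensities were 430.5, 314 and 724 in rotenone rats 16, 13 and 9, against 606, 806 and 919 in solvent rats 11, 7 and 1. Rotenone rats 16 and 13 lay below every solvent rat, and rotenone rat 9 lay among them. The normalized mean was 9.08 ± 0.56 with rotenone and 9.63 ± 0.22 with solvent, 0.686-fold (interval 0.457 to 1.03), so the interval reached from less than the solvent level to slightly above it. Limma gave an unadjusted p of 0.0667 and an adjusted p of 0.895, and 2.12% of all tested probes had a difference as low or lower. The difference kept its sign under all 17 alternatives in which it could be computed, from -0.82 without rotenone rat 9 to -0.26 without rotenone rat 13, and it was -0.55 without rotenone rat 16.

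Slc6a3, which takes released dopamine back into the neuron, was measured by 2 probes of the same transcript that gave very different signals. Probe GE1176496 had net intensities of 5569.5, 5939 and 5916 in rotenone rats 16, 13 and 9, against 6183, 6924 and 7438 in solvent rats 11, 7 and 1. All rotenone rats lay below all solvent rats, which was also so for 4.89% of all tested probes. Another 5.08% had all rotenone rats above all solvent rats, 9.97% in either direction, and Slc6a3 was the 1 gene of the 5 whose groups did not overlap. Normalized intensity was 12.53 ± 0.07 with rotenone and 12.73 ± 0.11 with solvent, 0.873-fold, and of the 5 genes it varied least among rats (SD of 0.14 over all 6 rats, against 0.23 to 0.54). Because limma draws each probe's spread towards that of the others, the interval is wider than these SDs, from 0.686-fold to 1.11-fold (unadjusted p = 0.236, adjusted p = 0.897). On the authors' own scaling, which divides each array by about its median, the values were 475, 401 and 424 in rotenone rats 16, 13 and 9 against 422, 431 and 445 in solvent rats 11, 7 and 1. There the groups overlapped and the difference was 0.00031, rat 16 being the array with the lowest median. The second probe, GE19906, was marked near background on all 6 arrays, with net intensities of 7.58 to 9.16 in rotenone rats and 1.87 to 9.22 in solvent rats, and gives no usable level of the gene.

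Drd2 encodes the D2 receptor, which on dopamine neurons serves as the autoreceptor. Its net intensity was 3280.2, 1138 and 1588 in rotenone rats 16, 13 and 9, against 1111, 1856 and 1971 in solvent rats 11, 7 and 1. Rat 16 was far above the rest, and the other rotenone rats lay within the solvent range. The normalized means were 10.89 ± 0.74 with rotenone and 10.66 ± 0.39 with solvent, differing by 0.23 (95% interval -0.52 to 0.98). This difference was -0.17 without rotenone rat 16 and 0.55 without rotenone rat 13. Of the 5 genes Drd2 had the widest interval, 0.697-fold to 1.97-fold.

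**Figure D2:**
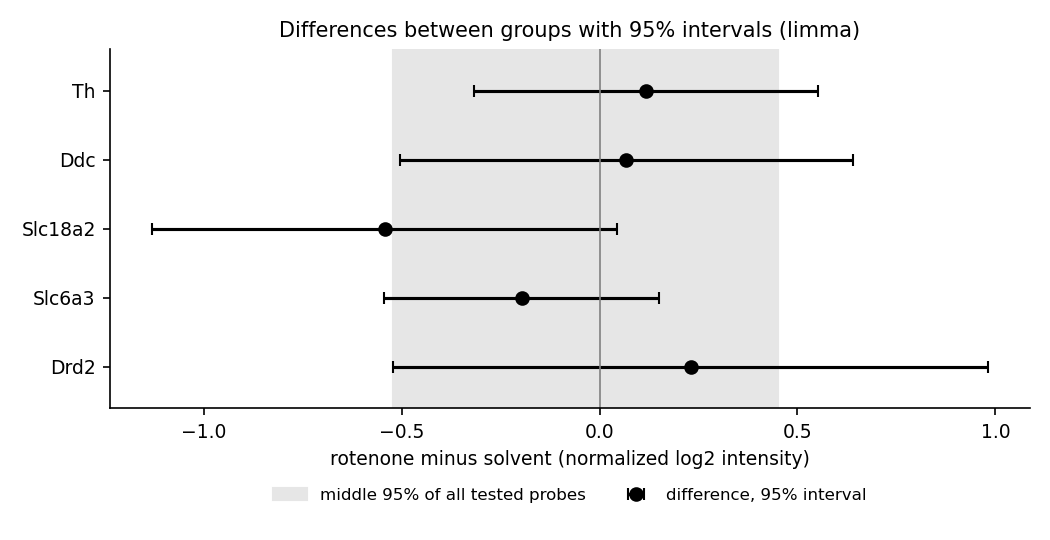
Difference between rotenone and solvent rats in normalized log2 intensity for the 5 tested genes (points) with limma's 95% interval (bars). The grey band holds the middle 95% of all 16708 tested probes, from -0.52 to 0.45. All 5 intervals include 0, and Slc18a2, at -0.54, lies just outside the band.

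A difference taken between 2 genes on the same array is free of any factor that scales the whole array, so each gene was also set against Th within every rat. The size of such a value depends on the probes, and only its change between rats can be read. Slc18a2 minus Th was -3.99, -4.05 and -3.27 in rotenone rats 16, 13 and 9, against -3.08, -3.20 and -3.05 in solvent rats 11, 7 and 1. All rotenone rats were below all solvent rats, with 0.071 log2 units between the nearest pair, rotenone rat 9 and solvent rat 7. Relative to Th, Slc18a2 was thus at 0.633-fold of the solvent mean (difference -0.66, exact permutation test, two-sided, p = 0.1, the smallest that 20 splits allow, and adjusted p = 0.4 over the 4 genes compared). Lower values relative to Th without overlap were found for 3.15% of all other tested probes, and no overlap in either direction for 4.25%.

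The other genes overlapped between the groups relative to Th. Slc6a3 minus Th was -0.64, 0.0065 and -0.34 in rotenone rats 16, 13 and 9, against 0.12, -0.09 and -0.06 in solvent rats 11, 7 and 1, a difference of -0.31 (exact permutation p = 0.3, adjusted p = 0.6). Rotenone rat 13 lay inside the solvent range and the other rotenone rats below it. Drd2 minus Th differed by 0.11 (exact p = 0.9) and Ddc minus Th by -0.05 (exact p = 0.9), both with overlap. For Ddc the value was 0.61 in solvent rat 7, against -0.081 to 0.30 in the other 5 rats.

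**Figure D3:**
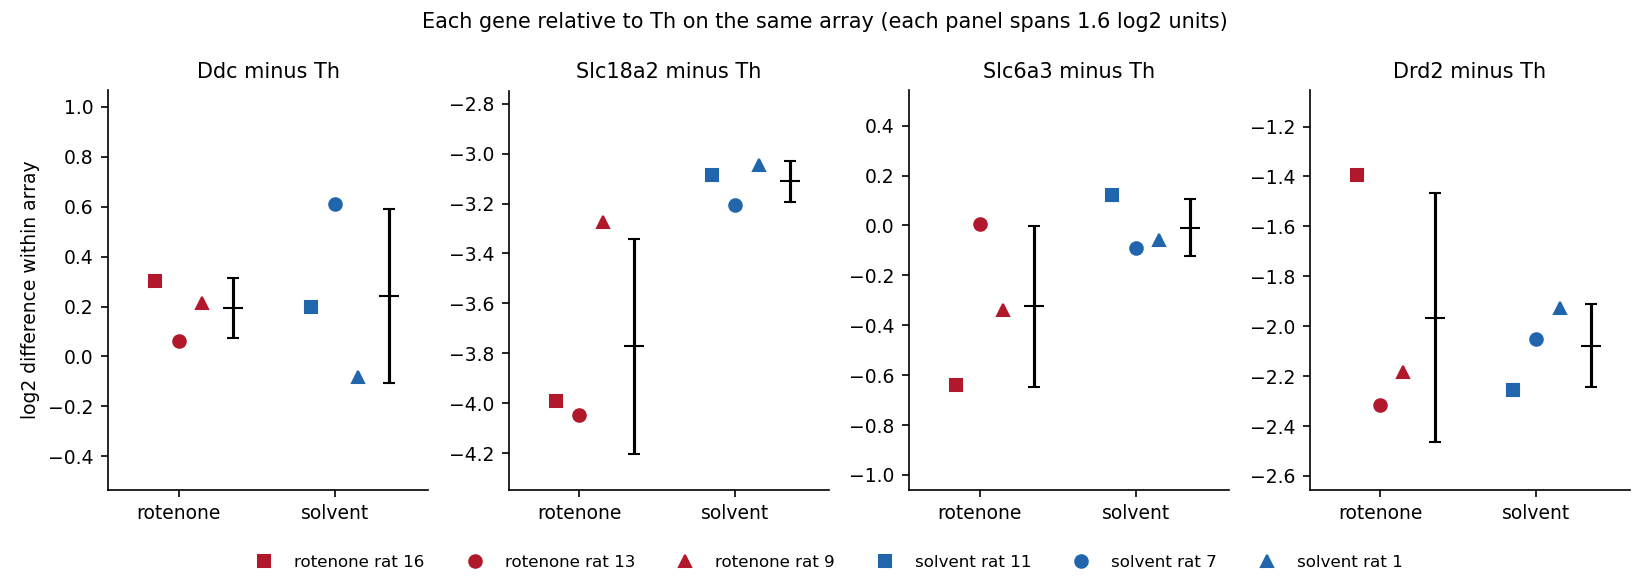
Log2 difference of Ddc, Slc18a2, Slc6a3 and Drd2 to Th on the same array, rotenone rats left (red) and solvent rats right (blue), 1 point per rat, with mean ± SD (black, n = 3). Slc18a2 is the gene whose groups do not overlap, at -4.05 to -3.27 with rotenone and -3.20 to -3.05 with solvent.

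The 5 genes did not move as a block from rat to rat. Th, Ddc and Drd2 were above their own means in rotenone rat 16, by 0.29, 0.38 and 0.92, and below them in rotenone rat 13, by -0.23, -0.39 and -0.53. They were also below in solvent rat 11, by -0.32, -0.34 and -0.55, so low values of all 3 genes occurred in a rat of each group. Slc18a2 and Slc6a3 instead were below their means in rotenone rat 16, by -0.26 and -0.18, the rat in which the other 3 genes were highest or nearly so. In rotenone rat 13 all 5 genes were below their mean, and there Slc18a2 had the largest deviation, -0.84.

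**Figure D4:**
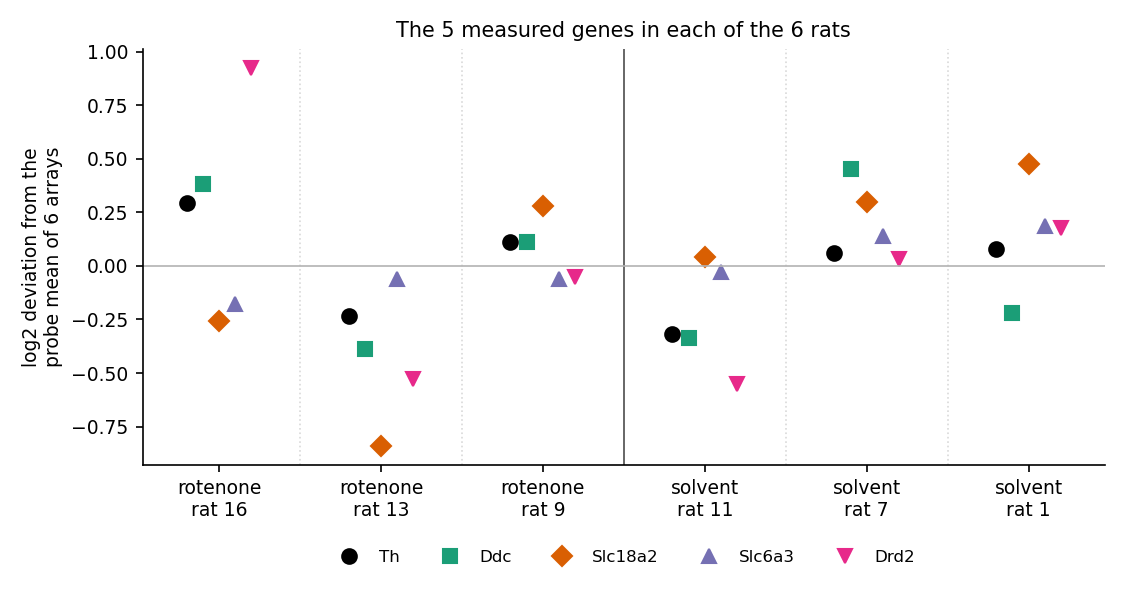
Deviation of each of the 5 tested genes from its own mean over the 6 arrays, in normalized log2 intensity, by rat, with rotenone rats left of the vertical line. In rotenone rat 16 Drd2, Ddc and Th lie above 0 and Slc18a2 and Slc6a3 below it. In rotenone rat 13 all 5 lie below 0.

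Likeness to a gene was measured as the root mean square difference (in log2 units) between profiles centred on their means, over the 6 arrays, among named genes above background on all of them and with an SD of at least 0.5 times that of the gene. The profiles share the arrays, so this is a description. They were not scaled to equal spread, so a rank depends on the size of the variation as well as on its shape. B4galnt1, which makes complex gangliosides, was most like Th, at 0.066, followed by Zar1 (0.074) and the metalloprotease Adam15 (0.076). Gata2, a transcription factor, was most like Ddc at 0.15, followed by the kainate receptor subunit Grik5 (0.18) and Rab4b (0.18). Th ranked 12 of 1334 candidate probes for likeness to Ddc, while Ddc ranked 284 of 1724 for likeness to Th.

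For the storage and reuptake genes the nearest profiles were others. The SD limit left Th and Slc6a3 out of the candidates for Slc18a2 and for Drd2, and Slc6a3 out of those for Ddc. Slc18a2 was nearest to Cplx2, a complexin of vesicle release, at 0.19, then to Rtn4 (0.20) and the cadherin Cdh8 (0.21). Slc6a3 was nearest to Ndrg2 at 0.046, then Pnoc (0.051), the precursor of nociceptin, and Faf1 (0.052). Drd2 was nearest to Ywhag (0.14), a 14-3-3 protein, Kcns3 (0.15), a potassium channel subunit, and Limk2 (0.16), and these 3 shared the high value of rotenone rat 16, which lay 0.82, 0.67 and 0.96 above their means. Among the candidates for Slc6a3, Th ranked 923 of 1843 and Slc18a2 ranked 1527. The SD over the 6 rats was 0.14 for Slc6a3 and 0.48 for Slc18a2, so the rank of Slc18a2 also reflects this unlike spread.

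Spots of the brightest members were uneven, and for Slc6a3 and Ddc the value depended on how the pixels were summarised. The spot mean of Th was 3.73 to 6.80 times the spot median over the 6 arrays, that of Slc6a3 1.15 to 3.55 times, and that of Ddc 0.812 to 5.00 times. Among 5724 spots of tested probes with a net intensity over 1000, the median ratio was 0.894, and 1.29% had a ratio over 3. For Slc18a2 and Drd2 the ratio stayed between 0.757 and 1.17. The scanner marked the spots of Slc18a2, Slc6a3 and Drd2 as irregular on 6 of 6 arrays, those of Th on 4 and those of Ddc on 2. The mark is common, with 29.4% to 36.3% of all probes, dim ones included, carrying it on each array. Leaving out irregular, contaminated and masked spots left 4283 of the 16708 tested probes. The marks did not follow the ratios, of which the highest were those of Th and Ddc.

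With the spot median in place of the mean, a setting chosen after these ratios were seen, Slc6a3 differed more. Its normalized values were 11.69, 11.22 and 10.77 in rotenone rats 16, 13 and 9, against 12.47, 11.72 and 11.89 in solvent rats 11, 7 and 1. All rotenone rats were again below all solvent rats, as for 4.87% of tested probes on this setting, and 9.96% had no overlap in either direction. The difference was -0.80, or 0.574-fold, with an interval from -1.42 to -0.18, an unadjusted p of 0.0164 and an adjusted p of 0.900 in limma. On this setting 4.9% of probes had an unadjusted p below 0.05 and 0.00599% (1 probe, not of these genes) an adjusted p below 0.05. Ddc differed by -0.31 and Drd2 by 0.55, Slc18a2 kept its difference at -0.59, and Th differed by 0.18. Slc6a3 minus Th then differed by -0.98 (exact permutation p = 0.1), and Slc18a2 minus Th by -0.77 (exact p = 0.2, with overlap).

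**Figure D5:**
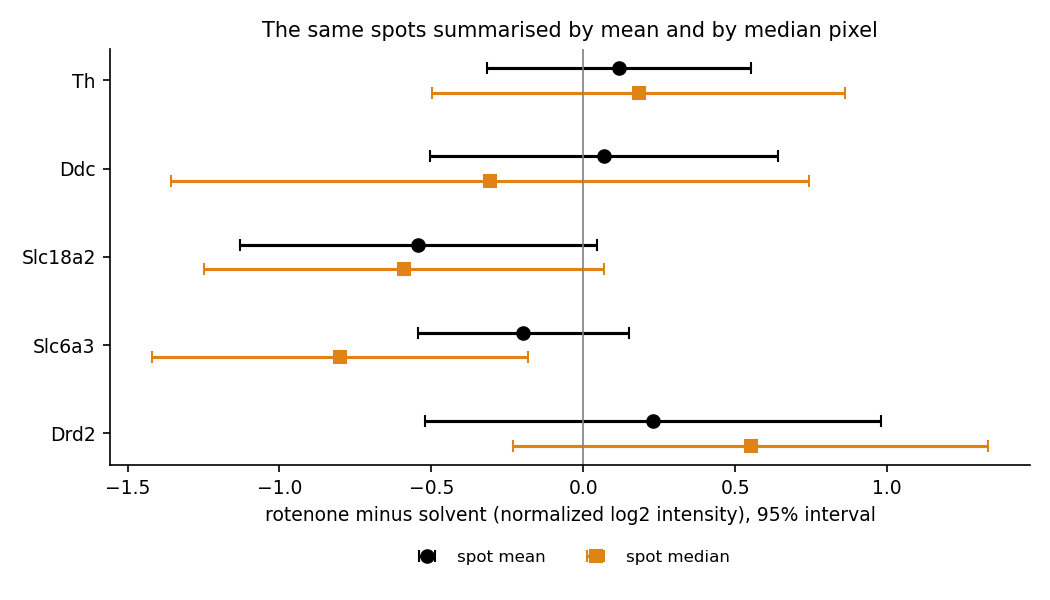
Difference between rotenone and solvent rats for the 5 tested genes from spot means (black circles) and spot medians (orange squares), with limma's 95% intervals, in normalized log2 intensity. Slc6a3 is at -0.20 by spot mean and -0.80 by spot median, and Ddc is on opposite sides of 0.

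Other genes around the dopamine neuron showed no called difference. Of 25 further genes of dopamine neurons, 11 were tested, 4 with higher and 7 with lower means with rotenone (median -0.037), while Kcnj6 and Chrnb3 were below background on all arrays. Without rat 16, 3 of the 11 were higher and 8 lower (median -0.16). Sncg, gamma-synuclein, differed by -0.67 and Nr4a2, a transcription factor needed for Th expression in development, by -0.79. In limma their unadjusted p was 0.0169 and 0.0343, and both had an adjusted p of 0.895. They were the 2 of the 11 with an unadjusted p below 0.05, against 4.94% of all tested probes. Nr4a2 was above background in 2 of 3 rotenone rats and in 3 of 3 solvent rats. Of 8 genes of monoamine breakdown, 4 were tested, 2 in each direction (median -0.16, and 0.0033 without rat 16), with the aldehyde dehydrogenases Aldh2 and Aldh3a2 at -0.77 and -0.34. The 7 tested genes of other dopamine receptors and dopamine signalling all had higher means with rotenone (median 0.13), as did 51.7% of all tested probes. Limma's unadjusted p was below 0.05 for 0 of the 7, which included Ppp1r9b, or spinophilin (0.43), and Tac1, the precursor of substance P (0.18). Of the kinases, phosphatase and 14-3-3 proteins that act on tyrosine hydroxylase, 7 were tested, 4 higher and 3 lower (median 0.048), with Ywhae at 0.35 and Ppp2ca at -0.70.

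Genes of other transmitter systems bear on Ddc and Slc18a2, which serotonin and noradrenaline neurons also use. Of 9 markers of serotonin, noradrenaline and histamine neurons, 7 were on the array, the serotonin transporter Slc6a4 and Hdc were below background on all 6 arrays, and 4 were tested, 2 in each direction. Their summed level, on the authors' scaled intensity, was 6.01 to 13.2 in rotenone rats and 6.28 to 10.5 in solvent rats. Among these, Dbh, of noradrenaline synthesis, differed by 0.30 and Slc18a1, the other vesicular monoamine transporter, by -0.17. Dbh was above background in 3 of 3 rotenone rats and 2 of 3 solvent rats, and Slc18a1 in 1 and 2. Without rat 16, 1 of the 4 tested markers was higher and 3 lower (median -0.10). The 4 tested genes among the other transmitter transporters all had higher means (median 0.12), as did 51.7% of all tested probes. The vesicular glutamate transporter Slc17a6 was at 0.36 and Slc32a1, of GABA vesicles, at 0.13. Slc32a1 was above background in 2 of 3 rotenone rats and in 3 of 3 solvent rats.

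Markers of other cells varied with the scale used and with rotenone rat 16. The 10 astrocyte markers on the array summed to 2113 to 2350.0 in rotenone rats and 1679 to 1953 in solvent rats on the authors' scaled intensity, without overlap, although Aqp4 and Slc1a2 were below background on all arrays. The sum of the endothelial and pericyte markers also did not overlap on that scaling. Nor did those of the other transmitter transporters, at 107 to 118 with rotenone and 74.9 to 99.5 with solvent, and of dopamine signalling, at 160 to 248 and 148 to 159. Such sums of linear values weigh bright genes most, and how often sums of other genes separate was not computed. The difference of Th was 0.35 on that scaling and 0.12 on the normalized scale. On the normalized scale 5 of the 8 tested astrocyte markers were higher and 3 lower (median 0.034), with Aldh1l1 and Glul at 0.26 each, and Gfap at -0.15, S100b at -0.26 and Aldoc at -0.25, the last 3 named after their values were seen. Sparcl1, the brightest of the 8 and also named afterwards, was at 0.053. Without rotenone rat 16, a count added after seeing the data, 7 were higher and 1 lower (median 0.18).

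The 9 general neuron markers on the array summed to 282 to 416 in rotenone rats and 401 to 492 in solvent rats, with overlap, and Snap25 was below background on all arrays. All 8 tested had lower means (median -0.28), among them Ina (-0.78) and Gap43 (-0.50), while 51.7% of all tested probes had higher means. In limma 3 of the 8 had an unadjusted p below 0.05, against 4.94% of all tested probes. No overlap between the groups was found for 2 of the 8, against 9.97% of all tested probes. Set against each gene's average over solvent rats, the neuron genes had a median of -0.71, -0.12 and -0.12 in rotenone rats 16, 13 and 9, against 0.098, -0.022 and -0.13 in solvent rats 11, 7 and 1. Rat 16 was thus the lowest, and the other rotenone rats were close to solvent rat 1. Without rat 16, 2 were higher and 6 lower (median -0.11). The part of the values of these and the following lists in the lower means of Slc18a2 and Slc6a3 was not tested.

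GABA neuron markers, 6 tested, had 1 higher and 5 lower (median -0.043), with Gad2 at -0.41 and Sst at -0.13, and summed to 114 to 140.1 with rotenone and 98.0 to 139 with solvent. Without rat 16, 4 of these 6 were higher and 2 lower (median 0.077). Gad2 was above background in 1 of 3 rotenone rats and 2 of 3 solvent rats, and Sst in 2 and 3. Gad1, above background in every rat, differed by -0.026. Oligodendrocyte markers, 9 tested, had 2 higher and 7 lower (median -0.21), with Mal at -0.66 and Sox10 at -0.42, and summed to 319 to 357 with rotenone and 306 to 436 with solvent. Without rat 16, 3 of these 9 were higher and 6 lower (median -0.17). Microglia markers, 4 tested, had a median of -0.11, with C1qb at -0.32 and Itgam at 0.26, and summed to 112 to 132 with rotenone and 112 to 129 with solvent, Cx3cr1 being below background on all arrays. Without rat 16, all 4 tested microglia genes were lower (median -0.088). Endothelial and pericyte markers, 4 tested, 2 in each direction, had a median of 0.0014 and no gene without overlap, with Kdr below background on all arrays, Slco1a4 at 0.30 and Pdgfrb at -0.20. Their sum on the authors' scaling was 33.1 to 40.3 in rotenone rats and 28.5 to 32.9 in solvent rats. Pdgfrb was above background in 1 of 3 rotenone rats and in 3 of 3 solvent rats. Without rat 16, 3 of the 4 tested endothelial and pericyte genes were higher and 1 lower (median 0.12). None of the genes in any of these lists passed the test over all probes.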

How the data were processed

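The deposited scanner files give, per spot, linear intensity values: spot mean, spot median, local background median, their difference, and that difference scaled by the authors' software to about the array median (from the values). The sources used here do not name the scanner software. The same scaled intensity fills the authors' deposited value table (column medians 0.994 to 1.003), with 100% of probes equal within 1e-06 in 5 columns and 0.898% in that of solvent rat 7, which did not match its scanner file (r = -0.0059). The table was not used further, and its scale is linear with no direction.

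Spot means were background-corrected with normexp (offset 50), log2-transformed and quantile-normalized, and control spots were left out. Spots marked irregular were kept. A probe counted as above background where the scanner set neither its low nor its masked mark, and probes above it on 3 or more of the 6 arrays were tested with limma 3.58.1 (R 4.3.3), two-sided, and adjusted by Benjamini-Hochberg. No fold is given for a probe below background in a whole group. Names came from RefSeq's GRCr8 gene table (4675 probes, 13.8%). Alternatives covered background correction, normalization, the authors' scaling, marked spots, the filter, array weights, the ordinary test and each rat left out. Precision is limited by the number of arrays.

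The members, lists, tests and the rule for named genes (all member probes, the 3 nearest profiles per member, and the 2 genes with the smallest p of each list) were chosen with earlier results of these data known. One gene that this rule names is not reported here.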

Additional observations from a re-analysis of the deposited data

How the results depend on the processing

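No paired analysis was possible because rotenone and solvent rats share no number. The count of probes called was 0 with all rats and 0 under 16 of the 18 alternatives. It was 3 without solvent rat 1 (of which 1, Cdon, has a name) and 1, unnamed, with spot medians, so leaving out a rat gave 0 to 3. None of the 5 genes passed the adjusted test under any alternative that gave it a value. Leaving out all marked spots left 4283 probes and, of the 5 genes, Ddc alone.

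Slc18a2 stayed lower with rotenone throughout, and relative to Th as well, from -0.91 to -0.52 with a rat left out. Slc6a3 lay between -0.26 and -0.15 with a rat left out, -0.80 by spot median and 0.00031 on the authors' scaling. With a rat left out, Th ranged from -0.012 to 0.26, Ddc from -0.11 to 0.31, Drd2 from -0.17 to 0.55, Slc18a2 from -0.82 to -0.26, and relative to Th, Slc6a3 from -0.48 to -0.16, Ddc from -0.21 to 0.13 and Drd2 from -0.17 to 0.29. Th turned to -0.00075 without rotenone rat 16 and to -0.012 without solvent rat 11. Ddc turned to -0.11 without rotenone rat 16, -0.084 without solvent rat 11, -0.025 without solvent rat 1, -0.031 with array weights and -0.31 by spot median. Drd2 turned to -0.17 without rotenone rat 16, and so did its value relative to Th, to -0.17. Ddc relative to Th turned to 0.016 without rotenone rat 13 and to 0.13 without solvent rat 7. The cause was not tested. Gch1 and Slc6a3 probe GE19906 are too dim for any scale to give their difference.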
